A study of Homo sapiens with 12 samples.

Results

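The genes described here are the interferon response and antiviral genes of HEK293T cells, read on microarrays as a check on sensing of the hairpin or of the lentivirus. They were chosen by gene symbol, from a list of 38 symbols, and a transcript cluster (the gene-level unit of the array) belonged to the set when any of its symbols was on the list. This gave 37 of the 25324 named clusters, of which 34 had a mean signal of at least 5 on the log2 scale and were tested, out of 22516 tested in all. One listed symbol, DDX58, appears under its current name RIGI. STAT2 was seen only through its probe sets, and the clusters of IRF9 and TRIM25 carry a second symbol, RNF31 and MIR3614.

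HEK293T cells derive from human embryonic kidney and express the large T antigen of SV40. Both groups are stable lines made with a lentivirus that expresses a short hairpin RNA and kept under puromycin selection, and they differ in the hairpin: one against PPIL3, a cyclophilin of the spliceosome, and one scrambled (SCR). Each group has 3 arrays, and the question was whether either line differs from the other in the genes that cells switch on when they sense foreign RNA. Since both groups carry a virus, a drug and a hairpin, a response shared by both would not appear as a difference, and no untransduced cells were analysed here. The PPIL3 hairpin carries 1 number in the titles of the samples and another in their source names. Nothing in the labels says that replicates came from separate transductions or cultures, so the spread behind each p-value is that of the arrays and may be technical. An effect of the hairpin cannot be told apart from one of the line that carries it.

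Cells detect double-stranded RNA with cytosolic helicases such as RIGI and IFIH1, which signal through adaptor proteins to the genes for type I interferon. Secreted interferon then acts on its receptor, and the kinases and STAT proteins behind that receptor, together with IRF9, turn on a large set of antiviral genes whose promoters carry interferon-stimulated response elements. A hairpin transcribed in the cell is itself double-stranded RNA, and a lentiviral vector brings in an RNA genome, which is why these genes are often used to look for side effects of a knockdown.

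The hairpins are shown because they are the only designed difference between the lines. Both were read from the design text, 5′ to 3′, with the arms that pair with each other in capitals and the loop and flanks in lower case. As given, the PPIL3 hairpin is 57 bases long with a stem of 21 base pairs. The SCR hairpin as given is 45 bases long with a stem of 18, and each loop has 6 bases.
PPIL3 hairpin: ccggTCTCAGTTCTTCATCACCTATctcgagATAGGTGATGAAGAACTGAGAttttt
SCR hairpin: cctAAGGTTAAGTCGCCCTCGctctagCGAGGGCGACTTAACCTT
The stems differ in sequence, and the PPIL3 hairpin ends in a run of T that the SCR sequence as given lacks. The SCR sequence as given stops at the last base of its stem. It may therefore be incomplete, and whether the stems differ in length cannot be read from it.

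Promoters of 5 of the genes are shown because they display the element through which interferon acts, and its absence from the window of ZC3HAV1L, the 1 member that passed the test over all clusters. Sequences are those of RefSeq on GRCh38.p14, on the strand of the gene, and capitals mark each match to the core of the response element (a GAAA, 2 bases of any kind and a second GAAA, searched on both strands, overlapping matches included).
ISG15, chr1:1013364-1013419, plus strand: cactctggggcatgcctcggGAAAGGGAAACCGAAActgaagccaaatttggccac
IFIT1, chr10:89392487-89392549, plus strand: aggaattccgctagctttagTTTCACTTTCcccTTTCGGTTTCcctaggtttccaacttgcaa
HERC5, chr4:88456974-88457074, plus strand: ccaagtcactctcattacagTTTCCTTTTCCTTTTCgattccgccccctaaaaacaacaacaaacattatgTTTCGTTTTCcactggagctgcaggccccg
IFI44L, chr1:78620264-78620404, plus strand: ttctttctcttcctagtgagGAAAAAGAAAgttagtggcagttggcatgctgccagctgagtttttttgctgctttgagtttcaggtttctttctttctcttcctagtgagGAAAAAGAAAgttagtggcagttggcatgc
ZC3HAV1L, chr7:139036043-139036142, minus strand: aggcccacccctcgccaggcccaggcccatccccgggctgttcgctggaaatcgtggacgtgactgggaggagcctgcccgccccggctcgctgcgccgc
Of the members, 31 had a promoter in the RefSeq table (250 bases before to 50 after the start of the gene), and 17 of these, or 54.8%, held at least 1 match. Over all 35116 promoters of the table, each counted, the share was 3.57%. For each member only the first promoter listed was searched, so a match at another start of the same gene would be missed. ISG15, IFIT1 and IFI44L had 2 matches each and HERC5 had 3. ZC3HAV1L, ZC3HAV1, ADAR, RIGI and OAS1 had none in this window, which says only that these letters do not occur there.

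Across the arrays as a whole, 127 of 22516 clusters passed the test (limma, Benjamini-Hochberg adjusted p under 0.05), 28 of them lower and 99 higher in the knockdown. This count comes from the fit without a replicate block, as do the shares of all clusters set beside the members. With the block it was 2 (1 higher, 1 lower), and with any single array left out it was between 1 and 20. The median difference over all tested clusters was -0.0065 and 80.5% of them differed by less than 0.1. All signals here are log2 RMA values, and every difference is knockdown minus SCR. Of 11 clusters of kidney and neural-like genes that mark HEK293T cells, 11 had a mean signal above the highest array median of the named clusters. PAX2 among them read 7.64 on knockdown array 2, below the lowest of these medians (7.66). Markers of other cells were mostly dim. Below the median on every array lay 6 of 7 T, B and NK cell clusters and 14 of 15 of monocytes, macrophages and dendritic cells. So did 5 of 6 of fibroblasts and 4 of 4 of endothelial cells. Some genes have several of these clusters (KRT8, LHX1, HLA-DRA, IL3RA and DCN), so there are fewer marker genes than clusters. One of the HEK293T markers passed the test, NEFM, a neurofilament gene that rose by 0.70 (limma adjusted p = 0.0060), and no cluster on the lists of other cell types did. Background probes without a target read 2.80 on average at 3 G or C bases and 12.1 at 25, so a signal above 5 does not by itself place a gene above background. At 19 to 24 such bases they were higher on every knockdown array (9.71, 9.72 and 9.87 at 24, against 9.68, 9.56 and 9.60 in SCR), and their part in the differences of the members was not tested. In bulk RNA, fewer cells that express a gene and less RNA per cell cannot be told apart.

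PPIL3 itself, the target of the hairpin, had signals of 7.30, 7.26 and 7.28 on the knockdown arrays, against 7.75, 7.81 and 7.81 on the SCR arrays (cluster TC02002668.hg.1). The groups were well apart, and PPIL3 fell by 0.51 (SE 0.030, 95% interval -0.58 to -0.44, limma adjusted p = 0.0061), a change of -29.8%. With the replicate number as a block the adjusted p was 0.058. Leaving out knockdown array 3 gave 0.054, leaving out SCR array 2 gave 0.065 and leaving out SCR array 3 gave 0.098, at differences between -0.51 and -0.50. In the mean of its 26 exon probe sets above the limit the difference was larger, at -0.74 (limma adjusted p = 3.7e-05). Of its 40 tested probe sets, 36 had a difference below 0 and 4 above, and 5 passed, all lower. The median over its junction probe sets was -1.04. All of these are changes of signal and not of the number of transcripts.

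The interferon response and antiviral genes as a group lay near the same level in both lines. Of the 34 tested clusters 1 passed the test, ZC3HAV1L, where 0.564% of all tested clusters did. It was lower in the knockdown, a direction in which 0.124% of all clusters passed. None was higher and passed (limma), against 0.44% of all clusters. At an unadjusted p under 0.05, 2 members were higher (IFI44L and USP18) and 2 lower (ZC3HAV1L and ADAR), against 8.39% and 6.92% of all clusters, so the shares are near the background. The 3 knockdown signals lay entirely above the 3 SCR signals for 4 members (IFI44L, HERC5, USP18 and RIGI) and entirely below them for 4 (ZC3HAV1L, ADAR, IFI35 and IRF9), against 10.5% and 9.94% of all clusters (20.4% in either direction), and the groups overlapped for the other 26. Differences were above 0 for 21 members and below 0 for 13, with a median of 0.0056 beside -0.0065 over all clusters. The difference was smaller than 0.1 for 27 of them.

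**Figure D1:**
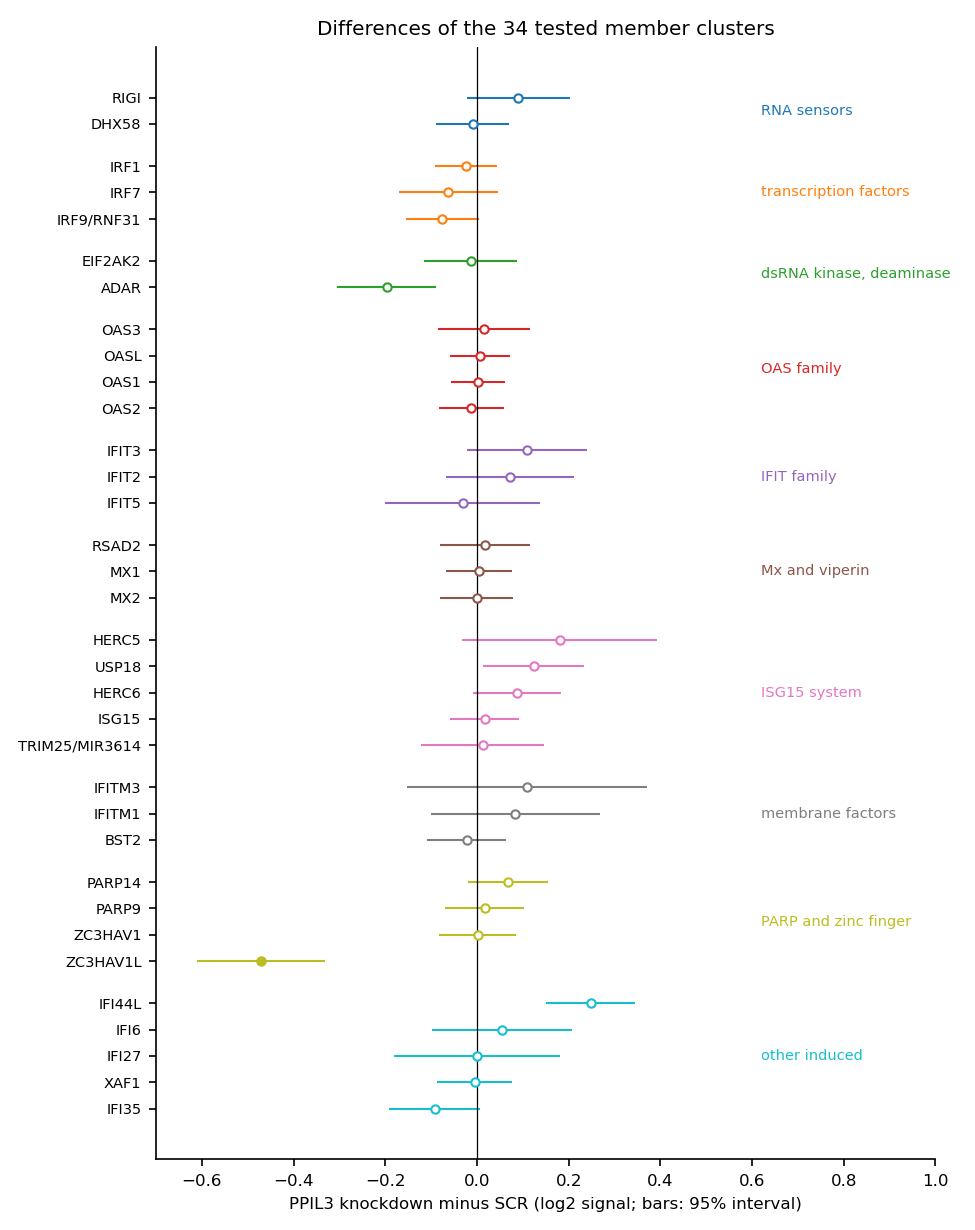
Difference in signal (PPIL3 knockdown minus SCR, log2, horizontal axis) of the 34 tested clusters, ordered by role, with bars for the 95% interval from limma and a filled point for a cluster that passed the adjusted threshold. ZC3HAV1L is the only filled point, at -0.47, and 27 of the 34 points lie within 0.1 of 0.

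The intervals give a range for each difference in signal, as far as the spread of these arrays allows. Leaving ZC3HAV1L aside, the 95% intervals of the other 33 tested members lay between -0.30 and 0.39 on the log2 scale, or between 0.81 and 1.31 times the SCR level. Signals of 21 of the 37 clusters, IFIT1, the OAS genes, MX1 and RSAD2 among them, lay below the median of the named clusters on all 6 arrays. A difference in a dim cluster is compressed by background, so these intervals describe the signal and not the number of transcripts. Some signals were also tied between arrays. MX1 had an SD of 0 over its knockdown arrays, and OAS1 had 3 distinct values on the 6 arrays. The spread behind such intervals may be too small, and it may be technical. IFIT1, IFI44 and IFIH1 had mean signals of 4.69, 3.93 and 4.80, below the limit, and were not tested.

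The RNA sensors come first in the pathway. RIGI, which binds short double-stranded RNA with a triphosphate at its end, had signals of 6.94, 7.06 and 6.91 in the knockdown, against 6.83, 6.90 and 6.90 in SCR. The knockdown arrays were all higher, by a margin smaller than the spread within a group, and the difference of 0.090 (SE 0.047) did not pass (limma adjusted p = 0.43). Without knockdown array 2 the difference was 0.044, and with array weights 0.022. IFIH1 (MDA5), which binds long double-stranded RNA, had 4.91, 4.84 and 4.88 in the knockdown, against 4.80, 4.66 and 4.72 in SCR, a difference of 0.15 with no test because the cluster is so dim. The groups did not overlap there either. In the mean of its 10 exon probe sets above the limit the difference was 0.25, again without passing (limma adjusted p = 0.067). DHX58 (LGP2), a relative that lacks the signalling domain and tunes the other sensors, had 7.24, 7.20 and 7.23 in the knockdown, against 7.29, 7.22 and 7.20 in SCR, and the groups overlapped.

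Of the transcription factors, IRF9 is the DNA-binding part of the complex that reads the interferon signal. Its cluster also carries the name of its neighbour RNF31, a ubiquitin ligase, so the 2 genes cannot be told apart there. It gave 8.33, 8.27 and 8.28 in the knockdown, against 8.42, 8.35 and 8.34 in SCR, lower on every knockdown array but only just, with a difference of -0.076 (SE 0.033) that did not pass (limma adjusted p = 0.35). IRF7, which drives the interferon alpha genes, had 8.26, 8.10 and 8.16 in the knockdown, against 8.25, 8.23 and 8.23 in SCR, and knockdown array 1 was above all SCR arrays. IRF1 differed by -0.024. STAT2, the partner of IRF9, has 56 tested probe sets, of which 43 had a difference below 0. The mean of its 30 exon probe sets averaged 7.83 ± 0.051 in the knockdown and 7.99 ± 0.026 in SCR (SD, n = 3 each). These groups did not overlap, the highest knockdown array being at 7.89 and the lowest SCR array at 7.96, and the difference of -0.15 did not pass (limma adjusted p = 0.12).

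ADAR and EIF2AK2 both act on double-stranded RNA in the cell, in opposite ways. ADAR edits adenosines in it, which hides the cell's own duplexes from the sensors, and EIF2AK2 (PKR) binds it and then halts translation. ADAR (TC01003295.hg.1) had signals of 10.06, 10.17 and 10.07 in the knockdown, against 10.23, 10.33 and 10.32 in SCR. Every knockdown array was below every SCR array, with a difference of -0.20 (SE 0.045, 95% interval -0.30 to -0.089), yet the adjusted p was 0.13 (limma). Its probe sets leaned the same way: 48 of 55 had a difference below 0 and 25 were lower at an unadjusted p under 0.05, where 4.53% of all probe sets were. Here and for the genes below, the cluster and its probe sets summarize the same arrays, so their agreement is no separate support. EIF2AK2 had 10.56, 10.68 and 10.59 in the knockdown, against 10.58, 10.65 and 10.65 in SCR. Its groups overlapped and its probe sets were split, with 24 of 47 below 0.

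The OAS proteins make a short oligoadenylate when they bind double-stranded RNA, which activates a ribonuclease. Their differences lay between -0.012 and 0.015. OAS3 had 6.89, 6.79 and 6.86 in the knockdown, against 6.89, 6.82 and 6.79 in SCR, and OAS2 had 5.34, 5.29 and 5.32 in the knockdown, against 5.36, 5.31 and 5.32 in SCR. OAS1 read 5.82 on all 6 arrays. OASL, a relative that does not make the oligoadenylate, differed by 0.0068. The groups overlapped for each of the 4.

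IFIT1 binds viral RNA that lacks the cap methylation of cellular messengers, and the IFIT genes are among those that interferon induces most. IFIT3 had 6.03, 6.08 and 6.21 in the knockdown, against 6.04, 5.93 and 6.02 in SCR. IFIT2 had 5.36, 5.36 and 5.52 in the knockdown, against 5.42, 5.31 and 5.29 in SCR. In both, knockdown array 3 was the highest of the 6 and the rest overlapped, with differences of 0.11 and 0.073. IFIT5 had 8.22, 8.50 and 8.44 in the knockdown, against 8.40, 8.45 and 8.42 in SCR, with the knockdown arrays on either side of the SCR arrays. The untested IFIT1 differed by 0.00053.

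Mx proteins are GTPases that block viral nucleocapsids, and RSAD2 (viperin) makes a chain-terminating nucleotide. MX1 had 6.70 on all 3 knockdown arrays, against 6.74, 6.70 and 6.65 in SCR. RSAD2 had 5.23, 5.08 and 5.14 in the knockdown, against 5.14, 5.12 and 5.13 in SCR, and MX2 differed by -0.00072. None of the 3 had groups apart.

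ISG15 is a small ubiquitin-like protein that interferon induces and that HERC5 couples to other proteins, while USP18 removes it and also damps the interferon receptor. ISG15 itself had 8.15, 8.07 and 8.09 in the knockdown, against 8.10, 8.09 and 8.07 in SCR, and the groups overlapped with a difference of 0.016 (limma adjusted p = 0.86). The conjugating and removing enzymes leaned upward without passing. HERC5 had 7.97, 8.31 and 8.01 in the knockdown, against 7.96, 7.89 and 7.90 in SCR. The knockdown arrays were all higher, array 1 slightly and array 2 by far, so that the difference was 0.18 (SE 0.089, limma adjusted p = 0.40) with all arrays and 0.074 without knockdown array 2. Of the 49 probe sets of HERC5, 47 had a difference above 0 and 15 were higher at an unadjusted p under 0.05, where 4.92% of all probe sets were.

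USP18 had 8.50, 8.66 and 8.59 in the knockdown, against 8.45, 8.50 and 8.43 in SCR. Its groups touched within rounding without overlapping, with a difference of 0.12 (SE 0.046, 95% interval 0.013 to 0.23, limma adjusted p = 0.28), and 23 of its 26 probe sets were above 0. HERC6, the relative of HERC5 that does this work in mice, had 7.89, 7.92 and 7.89 in the knockdown, against 7.89, 7.76 and 7.80 in SCR, where SCR array 1 met the knockdown arrays. TRIM25, a ubiquitin ligase for RIGI that shares its cluster with MIR3614, had 9.31, 9.51 and 9.33 in the knockdown, against 9.39, 9.37 and 9.36 in SCR, so that array 2 was again the highest and the groups overlapped.

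**Figure D2:**
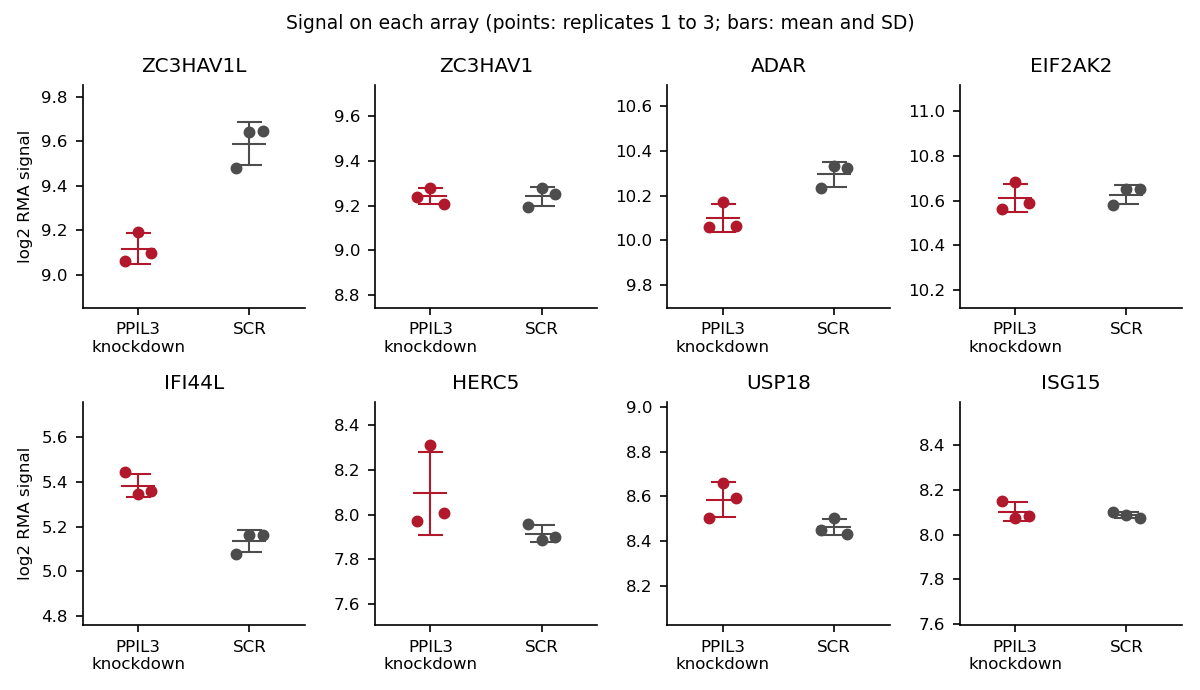
Signal (log2 RMA, vertical axes with their own ranges) on each of the 3 PPIL3 knockdown and 3 SCR arrays for 8 genes, with bars for the mean and SD. The knockdown points of ZC3HAV1L and ADAR lie below all SCR points and those of IFI44L, HERC5 and USP18 above them, while ZC3HAV1, EIF2AK2 and ISG15 overlap.

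Membrane factors stop virus particles at entry or exit. IFITM3, which blocks fusion in endosomes, had 9.37, 9.20 and 9.14 in the knockdown, against 9.36, 9.04 and 8.98 in SCR. IFITM1, which acts at the cell surface, had 9.32, 9.19 and 9.24 in the knockdown, against 9.32, 9.15 and 9.02 in SCR. In both genes array 1 was the highest of its group in either line, and this spread within groups was wider than the differences of 0.11 and 0.084 between them. The 2 genes are close copies, and probes shared between such copies may mix them. BST2 (tetherin), which holds budding particles, differed by -0.023.

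ZC3HAV1L was the member that passed the test over all clusters. It is a short relative of ZC3HAV1 (ZAP), the zinc-finger protein that binds CpG-rich viral RNA and recruits its decay. Less is known of ZC3HAV1L itself. Its cluster (TC07001909.hg.1) had signals of 9.06, 9.19 and 9.10 in the knockdown, against 9.48, 9.64 and 9.65 in SCR. Every knockdown array was below every SCR array by more than the spread within either group. It fell by 0.47 (SE 0.058, 95% interval -0.61 to -0.33, limma adjusted p = 0.034), a change of -27.9%, and only 7 of all tested clusters had a lower difference. The call rests on all 6 arrays: with the replicate number as a block the adjusted p was 0.062, and without any single array it was no longer past the threshold, at 0.069, 0.066 and 0.17 without knockdown arrays 1, 2 and 3 and 0.064, 0.20 and 0.20 without SCR arrays 1, 2 and 3. The difference stayed between -0.53 and -0.44 in these 6 fits.

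ZC3HAV1, in contrast, had 9.24, 9.28 and 9.21 in the knockdown, against 9.19, 9.28 and 9.25 in SCR (TC07001910.hg.1). The groups overlapped, with a difference of 0.0015 (95% interval -0.083 to 0.086). The probe sets showed the same pattern as the clusters. For ZC3HAV1L, 13 of 15 tested probe sets had a difference below 0 and 10 were lower at an unadjusted p under 0.05, where 4.53% of all probe sets were. The median was -0.49 over its 9 exon and also -0.49 over its 6 junction probe sets. For ZC3HAV1, 18 of 33 were below 0.

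The exon probe set of ZC3HAV1L with the smallest p, PSR07029614.hg.1, had signals of 9.69, 9.90 and 9.68 in the knockdown, against 10.33, 10.51 and 10.48 in SCR. The next, PSR07029612.hg.1, had 10.61, 10.81 and 10.59 in the knockdown, against 11.23, 11.33 and 11.29 in SCR. Both were clearly apart between the lines, by -0.68 and -0.61, but over the 745098 probe sets tested the adjusted p was 0.18 for each (limma).

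PARP14 and PARP9 are interferon-induced enzymes that act on ADP-ribose. PARP14 had 7.69, 7.81 and 7.77 in the knockdown, against 7.69 on all 3 SCR arrays, and knockdown array 1 met the SCR level. Its difference was 0.067 (limma adjusted p = 0.45), and PARP9 differed by 0.016.

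Among the remaining interferon-induced proteins, IFI44L had the largest upward difference of any tested member. It is a cytoplasmic protein of unclear action whose messenger is a common part of interferon signatures in blood. IFI44L (TC01000794.hg.1) had signals of 5.44, 5.35 and 5.36 in the knockdown, against 5.08, 5.16 and 5.16 in SCR. The groups were clearly apart but dim, below the median of the named clusters on all arrays. The difference of 0.25 (SE 0.040, 95% interval 0.15 to 0.35) did not pass over all clusters (limma adjusted p = 0.069). The difference lay between 0.22 and 0.27 when each array was left out in turn, at adjusted p between 0.088 and 0.27 (limma). The adjusted p was 0.12 with the replicate block (limma) and 0.21 without moderation (linear model).

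Of the 22 tested probe sets of IFI44L, 19 had a difference above 0 and 12 were higher at an unadjusted p under 0.05, where 4.92% of all probe sets were. The one with the smallest p, PSR01012696.hg.1, had 7.30, 7.21 and 7.34 in the knockdown, against 6.31, 6.65 and 6.51 in SCR. The next, PSR01012705.hg.1, had 6.33, 6.37 and 6.35 in the knockdown, against 5.71, 5.89 and 5.92 in SCR. These were apart by 0.79 and 0.51, at adjusted p of 0.16 and 0.23 (limma). In the mean of its 16 exon probe sets above the limit (of 30), IFI44L was at 6.64 in the knockdown and 6.32 in SCR. That difference of 0.32 passed (limma adjusted p = 0.0084), in a setting under which 479 of 18607 genes passed. With array weights, a setting under which 6565 clusters passed, the gene-level difference was 0.21 and also passed (limma adjusted p = 0.0026). These were the only 2 of 15 alternative settings in which IFI44L passed.

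**Figure D3:**
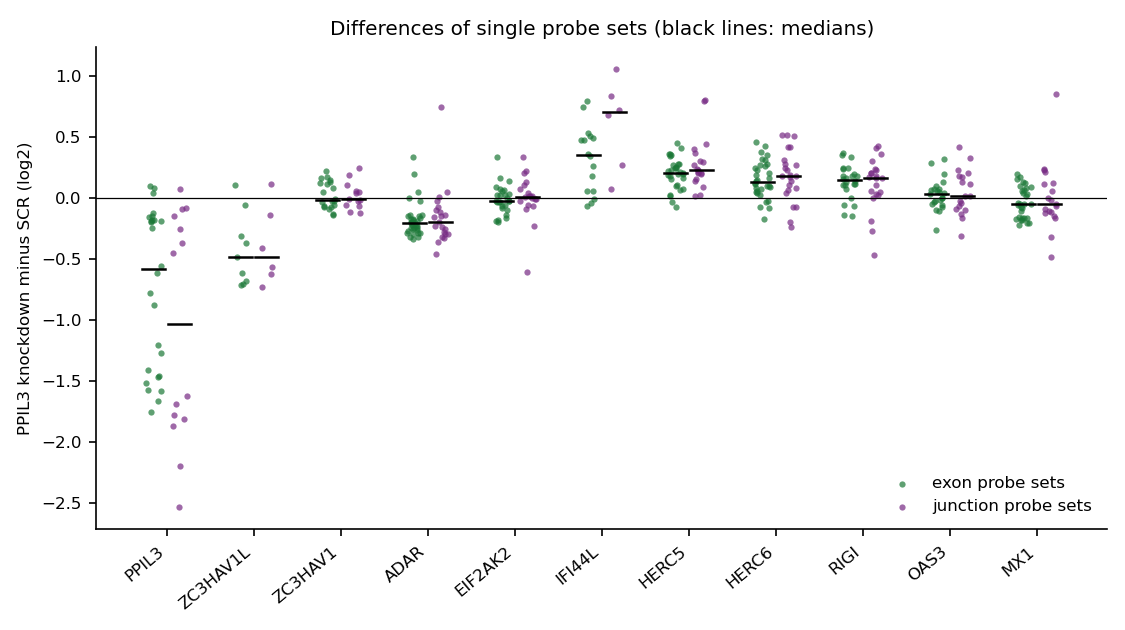
Difference (PPIL3 knockdown minus SCR, log2, vertical axis) of each tested exon probe set (green) and junction probe set (purple) of PPIL3 and 10 members, with black lines for the medians. ZC3HAV1L and ADAR have most points below 0 and IFI44L, HERC5, HERC6 and RIGI most above 0, whereas those of ZC3HAV1, EIF2AK2, OAS3 and MX1 lie around 0.

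IFI44, the neighbour of IFI44L, was at 3.94 in the knockdown and 3.92 in SCR, too dim to be tested. IFI35, a regulator of the sensors, had 6.94, 6.80 and 6.81 in the knockdown, against 6.94 on all 3 SCR arrays. Its knockdown array 1 lay just under the SCR arrays and the other two well under, with a difference of -0.092 (SE 0.041, limma adjusted p = 0.36). IFI6, a mitochondrial and reticulum protein that restrains flaviviruses, had 9.50, 9.48 and 9.42 in the knockdown, against 9.55, 9.37 and 9.31 in SCR, and its groups overlapped. IFI27 differed by 0.00076 and XAF1, a pro-apoptotic factor, by -0.0049.

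Taking all probe sets of the members, 1078 of 1333 were bright enough to be tested and none passed the adjusted threshold, where 0.00429% of all probe sets did (32 of 745098). At an unadjusted p under 0.05, 63 were higher and 70 lower, beside 4.92% and 4.53% of all probe sets (9.45% in either direction). The signs were split evenly, 539 below 0 and 539 above. Probe sets of 1 gene share its transcripts, so they are not replicates of each other or of its cluster.

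The rest of the pathway was read from 7 further lists with 144 symbols, which had 167 tested clusters. None of them passed the adjusted threshold in either direction (limma), where 0.564% of all clusters did. At an unadjusted p under 0.05, 8 were higher and 7 lower, against 8.39% and 6.92% of all clusters. Pooled, that is no more than the background, but the lists differ: 6 of the 8 higher clusters are in the last list of 33. Of the 167, 73 are antigen presentation clusters, many of them copies of the same genes. The median difference was -0.0043. Of the 21 interferon genes themselves, only 4 had a mean signal of at least 5. IFNB1, the first interferon that infected cells make, had 5.12, 4.99 and 5.10 in the knockdown, against 5.13, 5.13 and 5.20 in SCR, a difference of -0.086 at a signal close to the limit. IFNL3 differed by -0.043, with overlapping groups, and the other 17 ligand clusters were below the limit.

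Among 14 clusters of receptors and JAK-STAT signalling, IFNAR2, a chain of the type I receptor, had 8.81, 8.93 and 8.87 in the knockdown, against 8.75, 8.67 and 8.71 in SCR. These did not overlap, and the difference of 0.16 did not pass (limma adjusted p = 0.15). SOCS1, an inhibitor of the pathway, differed by 0.13 and STAT3 by -0.10. Among 19 adaptors and kinases that relay the sensors' signal, the kinase TBK1 differed by 0.13 and its partner TANK by 0.089, and none reached an unadjusted p under 0.05. The 10 clusters that process hairpins and guide RNA interference had none either: PRKRA, a cofactor of DICER1, differed by 0.12 and DROSHA by 0.11. Of 14 clusters of further effectors of double-stranded RNA and partners of ZAP, TIPARP differed by -0.15 and EXOSC5, a subunit of the exosome that degrades RNA, by -0.098.

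Antigen presentation, which interferon raises, had 75 clusters for 20 genes because the array carries alternative copies of the MHC region, and 73 of them were tested. Of these, 6 were lower at an unadjusted p under 0.05, where 6.92% of all clusters were, and 5 of the 6 were copies of TAPBP, so they count as little more than 1 gene. TAPBP (tapasin, which loads peptides on MHC class I) had 8.81, 8.77 and 8.70 in the knockdown, against 9.19, 8.99 and 9.01 in SCR, apart by -0.31 with a limma adjusted p of 0.097. PSME1, a part of the interferon-inducible proteasome activator, differed by -0.14.

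The last list, 33 clusters of other interferon-stimulated genes, had 6 higher and 0 lower at an unadjusted p under 0.05, against 8.39% and 6.92% of all clusters. Its higher share is thus above that of all clusters. Several lists were read, all chosen with earlier results of these data known, and no test was run on this share. The groups were apart upward for 7 and downward for 1, against 10.5% and 9.94% of all clusters. IFI30, a lysosomal thiol reductase, had 9.01, 8.91 and 8.97 in the knockdown, against 8.80, 8.63 and 8.51 in SCR. SP110, a nuclear body protein, had 6.67, 6.72 and 6.60 in the knockdown, against 6.54, 6.40 and 6.35 in SCR. Both were apart between the lines, by 0.31 and 0.24, with limma adjusted p of 0.13 and 0.14. The median of this list was 0.020.

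**Figure D4:**
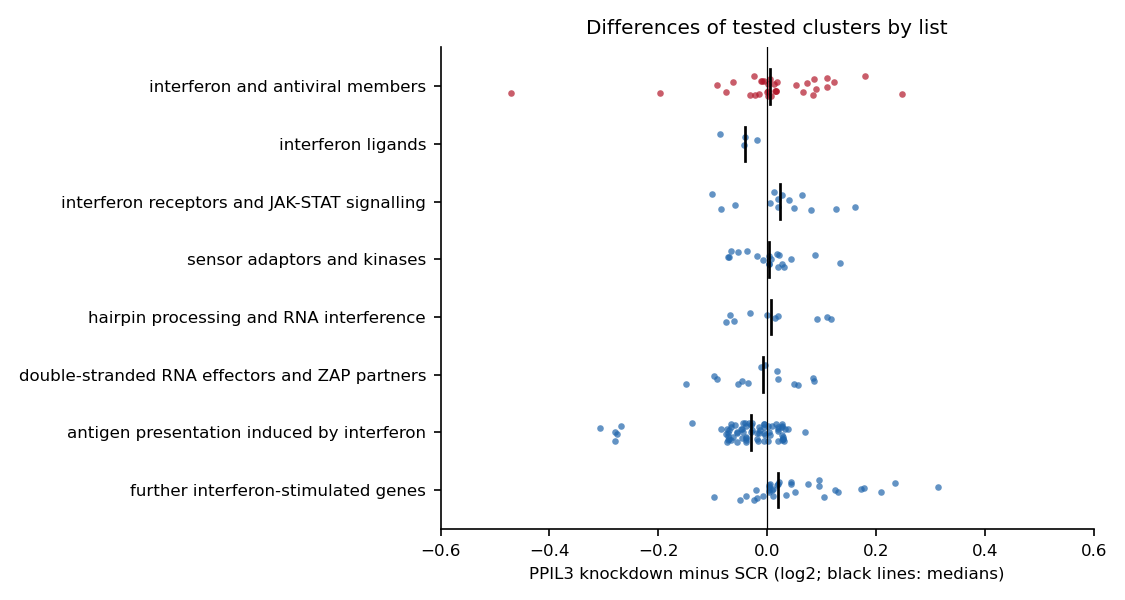
Difference (PPIL3 knockdown minus SCR, log2, horizontal axis) of each tested cluster of the members (red) and of 7 further pathway lists (blue), with black lines for the medians. All list medians lie between -0.041 and 0.023, and the points farthest from 0 are ZC3HAV1L at -0.47 among the members, IFI30 at 0.31 and TAPBP at -0.31.

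The promoters printed above can be set beside these values. The 14 tested members whose promoter held a match to the response element had a median difference of 0.035, with 11 above 0 and 3 below, and the groups were apart for 2 of them. The 13 tested members with a promoter but no match had a median of 0.0015, with 7 above 0 and 6 below, and the groups were apart for 5. ISG15, with 2 matches, differed by 0.016, and HERC5, with 3, by 0.18, so genes with the element lay anywhere from -0.031 to 0.25. These are counts over genes of the same 6 arrays, and no test was run on them.

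**Figure D5:**
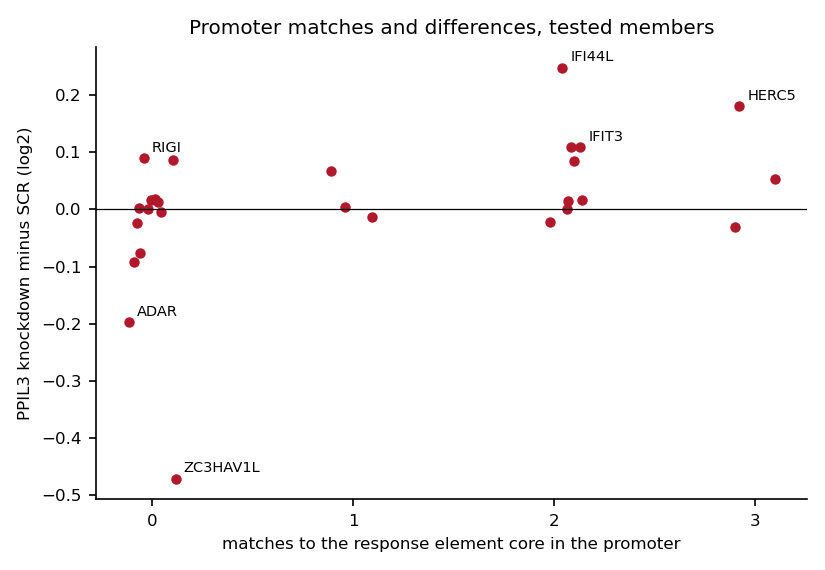
Difference (PPIL3 knockdown minus SCR, log2, vertical axis) of each tested member with a RefSeq promoter, by the number of matches to the response element core in that promoter (horizontal axis, points spread sideways for visibility). Genes with 2 or 3 matches run from -0.031 (IFIT5) to 0.25 (IFI44L), and ZC3HAV1L, at -0.47, has no match.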

How the data were processed

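Total RNA was hybridized to the Affymetrix Human Transcriptome Array 2.0. The submitters' processing notes name Expression Console (Affymetrix) and RMA. For their versions and the genome build, nothing is given in the sources used here. The deposited values are log2 signals, summarized by the authors per gene and per probe set. RMA makes the arrays' distributions equal and hides a shift common to most transcripts. The 12 samples were treated as 6 arrays, because 2995 rows in common were identical between same-named samples. The number of arrays limits the precision.

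Symbols came from the platform annotation, updated by RefSeq names (620 gene-level rows changed): 24027 clusters had 1 symbol and 1297 several. Clusters with a symbol and a mean of at least 5, and likewise probe sets, were fitted with limma 3.58.1 (lmFit, eBayes, two-sided, Benjamini-Hochberg over all rows) in R 4.3.3 with statmod 1.5.0 and the package data.table (1.17.8), with scripts tested on simulated data. Figures and sequences used Python 3.11.15 and matplotlib 3.10.9. Members, lists and alternatives were chosen with earlier results of these data known.

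Array values are given for members past the threshold or with groups apart, for the 2 largest differences and the brightest member of each role, and for ZC3HAV1. In each further list the called clusters and the 2 largest differences are named. The promoter motif and the marker lists were set with these rules, and any further gene was named after its values were seen. The labels number the replicates 1 to 3 in both groups. After group means were removed, same-numbered arrays correlated at 0.35, 0.15 and 0.16 over clusters. Pairs of different numbers lay between -0.36 and 0.21, the highest being knockdown array 2 with SCR array 3. Each same-numbered correlation was over 0.1, but 0.15 and 0.16 lay below the 0.21 of that pair of different numbers. Whether the numbers pair the arrays is thus settled neither by the data nor by the labels. The fit without the block stayed the main one. Alternatives were a replicate block, other filters, 1 cluster per gene, median centring, quantile normalization, trend and robust moderation, no moderation, array weights, exon probe set means and leaving out each array.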

Additional observations from a re-analysis of the deposited data

How the results depend on the processing

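With the replicate block, 2 clusters passed the threshold in place of 127, no member did in place of 1, and neither a pathway cluster nor a member probe set did. The block changed no other call than those of PPIL3 and ZC3HAV1L among the genes followed. Members called were also 0 with arrays centred on their medians (ZC3HAV1L adjusted p = 0.057) and 0 without moderation (4 clusters in all). Array weights called 6565 of 22516 clusters (3366 higher, 3199 lower). Under them 10 of 34 members (6 higher, 4 lower, with IFI44L, USP18, ADAR and ZC3HAV1L among them) and 39 of 167 pathway clusters (23 higher, 16 lower) were called. The share of members is near that of all clusters, and the pathway share is below it. Exon probe set means called 479 of 18607 genes, 2 of 36 members (IFI44L and ZC3HAV1L) and 3 of 120 in the pathway lists. Trend and robust moderation called 2 member probe sets, both lower. Leaving out 1 array at a time gave 1 to 20 clusters and 0 to 0 members, pathway clusters and member probe sets, with a median difference of the members between 0.0021 and 0.021 (0.021 without SCR array 1, 0.019 without knockdown array 2). Over all probe sets, 32 passed in the main fit, 0 with the block, 0 without a filter on dim values, 138 at a mean of at least 6, 510 with trend and robust moderation, 99 with array weights and 0 without any 1 array. No followed difference changed sign. The causes were not tested. The intervals printed with the members come from the fit without the block, and IFIT1, IFI44, IFIH1 and STAT2 have none. These intervals describe the signal and not the number of transcripts.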
